A study of Homo sapiens with 6 samples.

Results

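The genes of mitosis and of DNA replication were measured in cultures of SKOV3, a long-established cell line from a human ovarian cancer, grown attached to plastic or by a low-attachment 3D method. The list held 48 genes, 24 of mitosis and 24 of replication. A gene counted as measured where a probe set carried its symbol in the platform annotation, and where a gene had several, the one with the highest mean was to represent it. This gave 37 of the 48 genes, 20 of mitosis and 17 of replication, among 14884 genes analysed, and each of the 37 had a single probe set. UBE2C, TPX2, CENPE, CENPF, ORC1, POLA1, POLE2, RFC3, RFC4, CHAF1A and TK1 were not analysed here.

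Both groups were kept for 11 days in McCoy's 5A medium with 15% fetal bovine serum. The control (2D, n = 3 arrays) grew on plates that allow attachment. The other group (3D, n = 3 arrays) grew on low-attachment plates with 0.015% (w/v) FP001, an additive that the labels give by code name only and for which the labels name Milli-Q water as the alternative. The plate and FP001 differ between the groups at once, and their contributions cannot be told apart. All samples came from 1 cell line, and nothing in the labels says that samples of a group were separate cultures. The p-values measure spread among these samples alone, and that spread may be technical. The question addressed was what the 3D method does to gene expression.

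A dividing cell copies its DNA in S phase and separates the copies in mitosis. Before S phase the proteins CDC6 and CDT1 help to load the MCM helicase onto replication origins, a step called licensing. CDC45 and the GINS complex then join the helicase, and the sliding clamp PCNA holds the polymerases on DNA. In mitosis CDK1 with its B cyclins drives entry, the Aurora and Polo kinases build the spindle, and CDC20 turns on the ubiquitin ligase that starts anaphase. Transcription of the replication genes is known to peak earlier in the cycle, under E2F factors. That of mitotic genes peaks later, under the MuvB complex with B-MYB and FOXM1. Levels of both groups are widely used as readouts of how many cells in a culture are cycling. In bulk RNA, fewer cells in a given phase and less RNA per cell cannot be told apart.

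Values are log2 RMA values, the normalised output of a microarray pipeline, and differences are 3D minus 2D on that log2 scale. The levels of different probe sets cannot be compared. The lowest value of any of the 37 genes on any array was 6.62, above the array medians of 4.30 to 4.37. The 3D replicate 1 array stood apart within its group: it correlated with the other 3D arrays at 0.988 over all genes, while those correlated with each other at 0.995. The 2D arrays correlated at 0.991 to 0.993. Of the epithelial and ovarian carcinoma markers, 7 of 9 were measured. EPCAM rose from 8.10 to 8.34 in 2D to 9.85 to 10.08 in 3D and KRT19 from 6.87 to 7.47 to 9.50 to 10.27, while KRT7 fell from 5.77 to 6.23 to 5.11 to 5.16 (limma adjusted p = 0.00532). PAX8 (10.13 to 10.44 over all arrays), KRT18 (9.50 to 10.22), KRT8 (5.58 to 5.89) and WT1 (5.09 to 5.35) did not pass. Of the leukocyte markers 2 of 5 were measured. CD14 read 3.73 to 4.31 in 2D and 3.49 to 3.74 in 3D, lower by the means but not passing (-0.41, limma adjusted p = 0.168). CD68, which is not restricted to leukocytes, rose from 8.86 to 9.19 in 2D to 9.73 to 9.76 in 3D. Of the fibroblast and endothelial markers 3 of 6 were measured. DCN read 2.42 to 2.65 and VWF 4.19 to 4.70 over all arrays, and PECAM1 rose from 3.52 to 3.98 in 2D to 4.88 to 5.07 in 3D. Relative to each gene's own mean, the leukocyte pair, which differed in opposite directions, averaged -0.14 to -0.02 over the 2D arrays, against 0.02 to 0.15 over the 3D arrays. The fibroblast and endothelial markers averaged -0.33 to -0.10 over the 2D arrays, against 0.15 to 0.37 over the 3D arrays, with PECAM1 the 1 marker of these that passed. No marker was at 0, but DCN lay below the lower quartile of every array (2.92 to 2.97). CD14 on every array, and PECAM1 on the 2D arrays, lay below the median of that array. The part of these markers in the results was not tested.

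Few of the cell cycle genes passed as different between 3D and 2D culture. In 32 of 37 (86.5%) the range over the 2D arrays exceeded the absolute difference between groups, as in 66.0% of all genes. Intervals were wide, reaching 1.43 for RRM2 and 1.31 for KIF20A, so larger differences are not excluded. With limma, 1 of 37 passed an adjusted p under 0.05 as higher in 3D, the flap endonuclease gene FEN1, and 0 passed as lower. Of all genes 5.23% passed as higher in 3D and 4.77% as lower, against 2.70% and 0 for the members. At an unadjusted p under 0.05 there were 7 higher members (18.9%) and 0 lower ones, where 11.5% of all genes were higher and 11.9% lower. The 3D arrays lay wholly above the 2D arrays for 5 members (13.5%), against 13.8% of all genes, and wholly below for 0, against 15.3%. The mitosis and replication genes were also counted apart, and these small counts were not tested against each other. Of the 20 mitosis genes 0 were called and 0 lay wholly above. At an unadjusted p under 0.05, 2 of the 20 were higher, a share near the 11.5% of all genes. Of the 17 replication genes 1 was called (5.88%), near the 5.23% of all genes, so the calls do not set the mitosis and replication genes apart. Of these 17, 5 were higher at an unadjusted p under 0.05 (29.4%) and 5 lay wholly above (29.4%). The difference was positive for 33 of 37 members (89.2%), against 48.7% of all genes. The median difference was 0.27 for the mitosis genes and 0.22 for the replication genes, with -0.01 over all genes. These genes varied together from array to array, so the count of 33 does not stand for 33 separate results. Without 2D replicate 3 the mitosis median was 0.05 with 14 of 20 positive, and without 2D replicate 1 it was 0.48 with 20 of 20 positive.

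**Figure D1:**
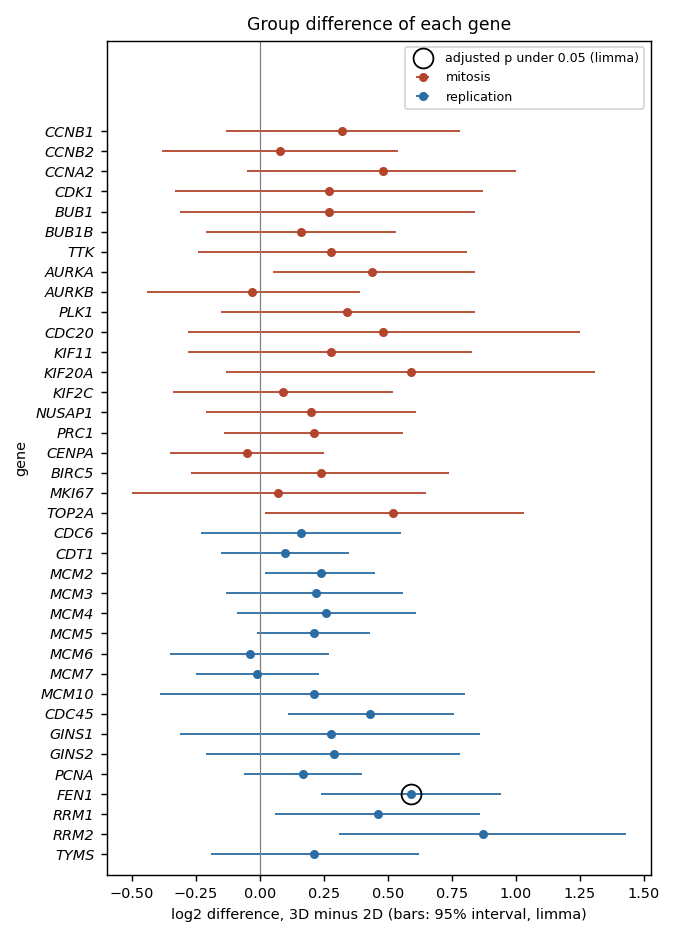
Difference of each of the 37 genes between 3D and 2D culture (horizontal axis, log2, 3D minus 2D, n = 3 arrays per group), with bars for the 95% interval from limma and a ring round the 1 gene with an adjusted p under 0.05, FEN1 at 0.59. The points run from -0.05 (CENPA) to 0.87 (RRM2), and most intervals include 0.

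The mitosis genes separated the 2D arrays from each other. In all 20 measured mitosis genes 2D replicate 1 was the highest of the 2D arrays and 2D replicate 3 the lowest. Over all 14884 genes, 18.9% showed that pattern. 2D replicate 3 was also the lowest of all 6 arrays in all 20 mitosis genes, against 2535 of all 14884 genes. In the 3D group, 3D replicate 1 was the lowest array for 19 of 20 mitosis genes, the exception being CENPA, and 42.8% of all genes had their 3D minimum there. The range over the 2D arrays was larger than the absolute 3D-minus-2D difference in 20 of 20 mitosis genes and in 66.0% of all genes.

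**Figure D2:**
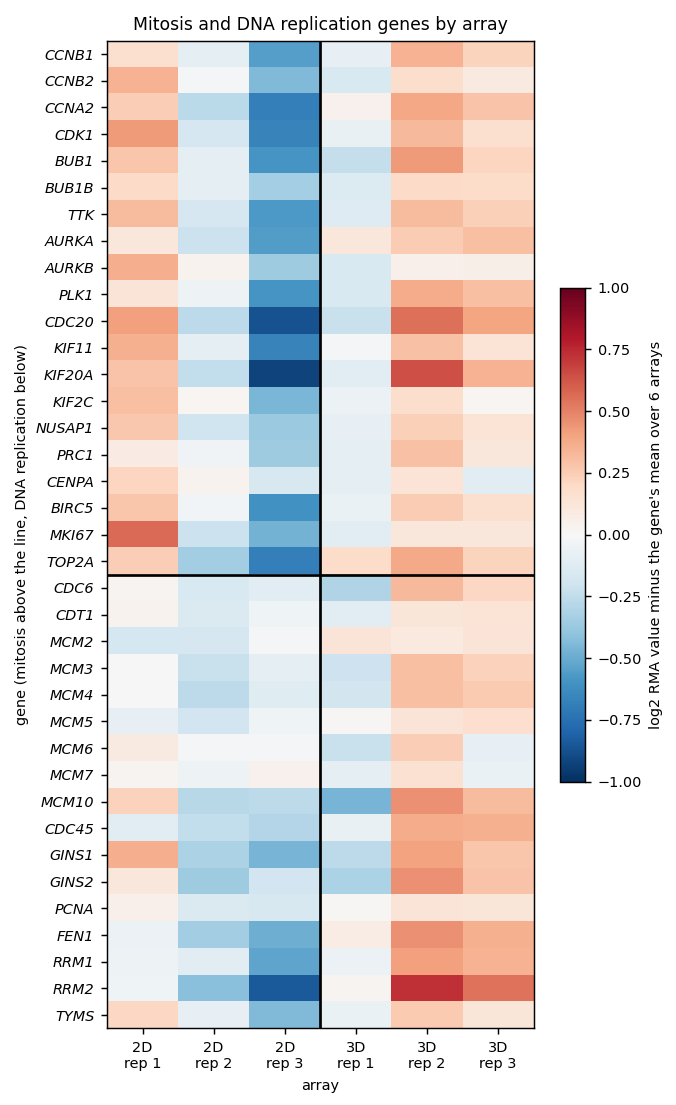
Log2 value of each of the 37 genes on each array minus that gene's mean over the 6 arrays, in colour (blue low, red high), with 2D arrays left and 3D arrays right of the vertical line and mitosis genes above the horizontal line. 2D replicate 3 is the bluest column in the mitosis block, and the origin licensing genes CDC6 to MCM7 are pale in all 3 2D arrays.

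MKI67 encodes Ki-67, which coats mitotic chromosomes and is the usual marker of cycling cells. It read 10.51, 9.73 and 9.47 in 2D replicates 1, 2 and 3, and 9.82, 10.05 and 10.05 in the 3D replicates 1, 2 and 3. The 3D arrays fell inside the span of the 2D arrays. The means were 9.90 ± 0.54 in 2D and 9.97 ± 0.13 in 3D (SD, n = 3), and the difference of 0.07 had a 95% interval of -0.50 to 0.65 (limma adjusted p = 0.905). TOP2A encodes topoisomerase II alpha, which untangles chromosomes before they separate. It read 10.85, 10.26 and 9.92 in 2D and 10.79, 10.98 and 10.83 in 3D. Here 2D replicates 2 and 3 lay below every 3D array, whereas 2D replicate 1 lay among them. The difference was 0.52 (0.02 to 1.03) with a limma adjusted p of 0.197, and it passed only without 2D replicate 1, at 0.78 and an adjusted p of 0.0289.

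Among the cyclins and their kinase, CDK1 read 8.59, 7.99 and 7.50 in 2D and 8.09, 8.48 and 8.32 in 3D. The 3D values lay within the 2D span of 1.09, which is 2.13-fold, and the group difference was 0.27 ± 0.26 (SE, limma adjusted p = 0.614). CCNB1, whose product is the cyclin B1 partner of CDK1, read 8.31, 8.05 and 7.59 in 2D and 8.06, 8.49 and 8.37 in 3D. 3D replicate 1 was close to 2D replicate 2, and the groups overlapped (0.32, interval -0.13 to 0.78, adjusted p = 0.392). CCNB2 gave 0.08. The cyclin A2 gene CCNA2, used in S phase and in early mitosis, gave 0.48 ± 0.22 (SE).

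The mitotic kinases had the same order of the 2D arrays, with 2D ranges of 0.53 to 0.89. AURKA, a kinase of the spindle poles, read 7.43, 7.09 and 6.75 in 2D and 7.42, 7.56 and 7.61 in 3D, so that 2D replicate 1 alone reached the 3D values. Its difference was 0.44 (0.05 to 0.84, adjusted p = 0.163). AURKB, the kinase of the chromosomal passenger complex at centromeres, read 8.70, 8.37 and 7.98 in 2D and 8.18, 8.39 and 8.40 in 3D. The 3D arrays lay inside the 2D span, and the difference was -0.03 (-0.44 to 0.39). The other kinases gave 0.34 for the Polo-like kinase gene PLK1, 0.28 for TTK, 0.27 for BUB1 and 0.16 for BUB1B, the last 3 acting in the spindle checkpoint. Of these 6 genes 0 passed (limma), with 1, AURKA, higher at an unadjusted p under 0.05 (16.7%, against 11.5% of all genes).

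The widest spread within 2D belonged to CDC20, the activator of the anaphase-promoting complex. It read 9.88, 9.20 and 8.60 in 2D and 9.25, 10.02 and 9.86 in 3D. The 2D arrays thus spanned 2.43-fold and the 3D arrays 1.71-fold, and the groups overlapped (0.48 ± 0.33 SE, adjusted p = 0.457). KIF20A, a kinesin of the central spindle and cytokinesis, read 8.96, 8.43 and 7.75 in 2D and 8.57, 9.32 and 9.02 in 3D. It had the largest difference of the mitosis genes, 0.59 (-0.13 to 1.31, adjusted p = 0.315), and 3D replicate 1 lay between 2D replicates 1 and 2. The other spindle genes gave 0.28 for KIF11, the motor that pushes spindle poles apart, 0.21 for the cytokinesis gene PRC1, 0.20 for NUSAP1 and 0.09 for KIF2C, a microtubule depolymerase. BIRC5, the survivin gene of the passenger complex, gave 0.24 with a 2D range of 0.89. CENPA, which encodes the histone H3 variant of centromeres, had the smallest 2D range of the mitosis genes, 0.38, and a difference of -0.05 (-0.35 to 0.25).

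**Figure D3:**
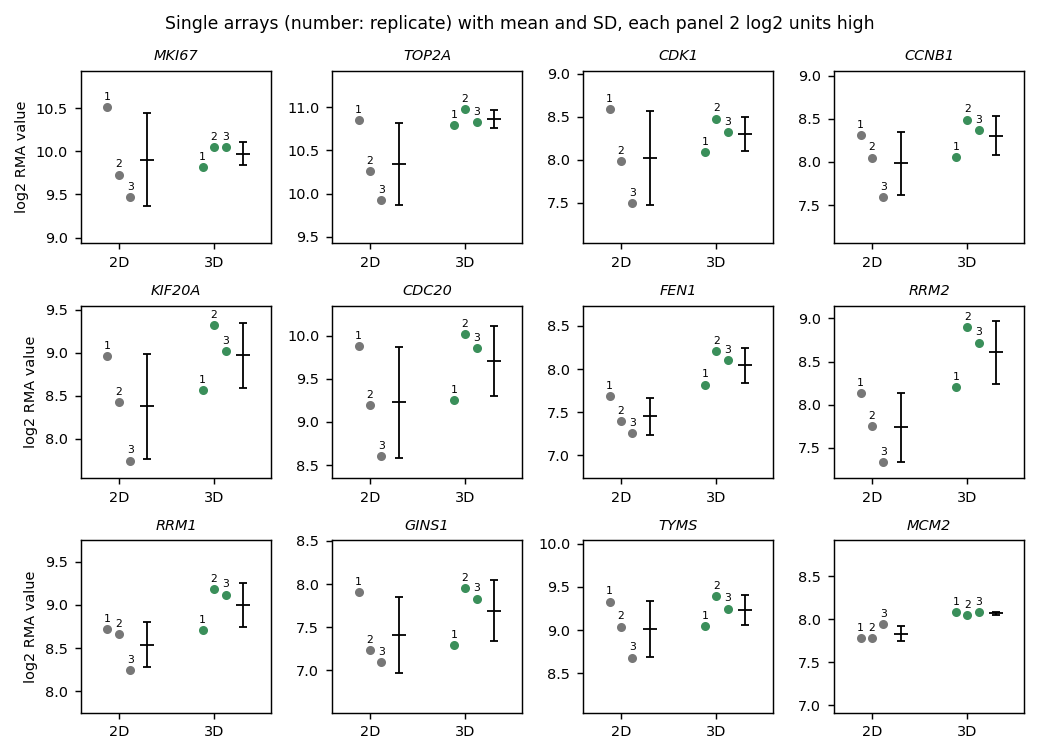
Log2 RMA values of 12 genes on single arrays (points, with the replicate number above each; 2D grey, 3D green) and the mean with SD (n = 3) to the right of each group; every panel spans 2 log2 units. For FEN1, RRM2 and MCM2 all 3D points lie above all 2D points. For GINS1 and the mitosis genes other than TOP2A the 2D points are spread over most of the 3D range or beyond it. For TOP2A only 2D replicate 1 reaches the 3D points.

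Origin licensing genes did not share the 2D pattern. MCM2, a subunit of the helicase, read 7.78, 7.78 and 7.94 in 2D and 8.08, 8.05 and 8.08 in 3D. All 3D arrays were higher than all 2D arrays, and their range was 0.03. Only 2.11% of all genes had a smaller SD over the 3D arrays. The difference was 0.24 (0.02 to 0.45), which did not pass over all genes (limma adjusted p = 0.166). MCM5 also had groups that did not overlap (0.21, -0.01 to 0.43, adjusted p = 0.245). The other helicase subunits gave 0.26 for MCM4, 0.22 for MCM3, -0.01 for MCM7 and -0.04 for MCM6, and the loading factors gave 0.16 for CDC6 and 0.10 for CDT1. Their 2D ranges were 0.10 to 0.26, and 2D replicate 3 was the lowest 2D array for 1 of the 8 genes, MCM6. In 3D, replicate 1 was the lowest for 7 of 8, all but MCM2. CDC6 read 7.34 in 3D replicate 1 and 7.96 and 7.85 in 3D replicates 2 and 3, while its 2D values were 7.66, 7.48 and 7.52. Of the 8 genes 0 passed (limma), with 1, MCM2, higher at an unadjusted p under 0.05 (12.5%, near the 11.5% of all genes).

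Among the genes of helicase activation was the member with the widest range within 3D, MCM10. This gene, which helps to fire the loaded helicase, read 7.09 in 3D replicate 1 and 8.01 and 7.88 in 3D replicates 2 and 3, a range of 0.92, against 7.79, 7.28 and 7.29 in 2D. 3D replicate 1 was the lowest of all arrays and 3D replicate 2 the highest. GINS1 read 7.91, 7.23 and 7.09 in 2D and 7.29, 7.95 and 7.83 in 3D, with a difference of 0.28 ± 0.25 (SE, adjusted p = 0.593). 2D replicate 1 stood with 3D replicates 2 and 3, and 3D replicate 1 with 2D replicates 2 and 3. GINS2 gave 0.29 ± 0.21. CDC45, another core subunit of the active helicase, read 6.93, 6.80 and 6.75 in 2D and 6.97, 7.42 and 7.40 in 3D. The groups did not overlap, by a small margin at 3D replicate 1. Its difference was 0.43 (0.11 to 0.76, adjusted p = 0.101) and reached 0.58 with an adjusted p of 0.0136 without 3D replicate 1.

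FEN1 encodes the nuclease that trims flaps from Okazaki fragments. It read 7.69, 7.40 and 7.26 in 2D and 7.82, 8.21 and 8.10 in 3D, so every 3D array was above every 2D array. The means were 7.45 ± 0.22 and 8.04 ± 0.20 (SD, n = 3), a 1.51-fold rise (0.59 ± 0.15 SE, limma adjusted p = 0.0477). The call lay close to the threshold. It was lost without 2D replicate 2 (0.143), 2D replicate 3 (0.151), 3D replicate 2 (0.16) or 3D replicate 3 (0.151) and after centring each array on its median (0.0581). PCNA, the sliding clamp that FEN1 works with, read 8.98 to 9.19 in 2D and 9.15, 9.27 and 9.27 in 3D. It gave 0.17 (-0.06 to 0.40), and 3D replicate 1 lay just below 2D replicate 1.

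The member with the largest difference was RRM2, a nucleotide supply gene. RRM2, the cell cycle-regulated subunit of ribonucleotide reductase, which makes deoxynucleotides, read 8.13, 7.75 and 7.33 in 2D and 8.20, 8.90 and 8.72 in 3D. The groups did not overlap, with 3D replicate 1 next to 2D replicate 1. The means were 7.74 ± 0.40 and 8.61 ± 0.37 (SD, n = 3), 1.82-fold apart (0.87 ± 0.24 SE), and the limma adjusted p of 0.0663 did not pass. It passed with a filter on dim probe sets (0.0442), after a repeated quantile normalization (0.0449), with a trended robust variance (0.0305), with array weights (0.00977) and without 3D replicate 1 (1.07, 0.0281). RRM1, the larger and less regulated subunit, read 8.72, 8.66 and 8.24 in 2D and 8.71, 9.18 and 9.12 in 3D, and 3D replicate 1 lay just below 2D replicate 1. Its difference was 0.46 (0.06 to 0.86, adjusted p = 0.157). TYMS, the thymidylate synthase gene, read 9.33, 9.04 and 8.68 in 2D and 9.05, 9.39 and 9.25 in 3D, with a difference of 0.21 (-0.19 to 0.62). All 3 genes had their 2D minimum in 2D replicate 3 and their 3D minimum in 3D replicate 1.

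The mitosis and replication genes were then compared by their spread within each condition. Averaged over the 20 mitosis genes and taken relative to each gene's mean, the 2D arrays spanned 0.83 and the 3D arrays 0.38. For the 8 licensing genes the same spans were 0.14 and 0.33, for the 4 helicase activation genes 0.45 and 0.70, and for the 3 nucleotide supply genes 0.64 and 0.50. The mitosis mean minus the licensing mean was 0.29, 0.02 and -0.50 in 2D replicates 1, 2 and 3. In the 3D arrays it was 0.04, 0.09 and 0.06. The gap between the mitosis and licensing genes thus varied over the 2D arrays and was nearly the same on the 3D arrays. The SD over the 2D arrays of the mitosis genes was larger than that of 70.3% to 99.7% of all genes, with a median of 96.8%. For the licensing genes it was larger than that of 12.4% to 50.6%. All 20 mitosis genes had a wider range in 2D than in 3D, as had 6865 of all 14884 genes. Of the 8 licensing genes 1 had, MCM2, with MCM5 at 0.15 in both. The mitosis genes varied together over the arrays, so they are not 20 separate results. With 3 arrays per group these spreads were described and not tested. The share of cells in each phase was not measured, and its part in the array differences was not tested.

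**Figure D4:**
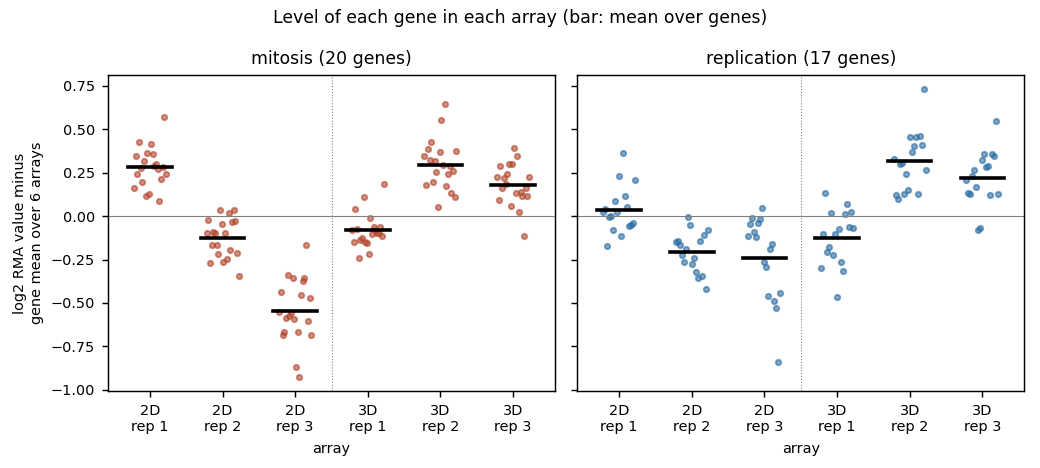
Level of each gene on each array relative to its own mean over the 6 arrays (vertical axis, log2; points are genes, bars are means over genes), for the 20 mitosis genes and the 17 replication genes. The mitosis bars run from 0.28 to -0.55 over the 2D arrays, and the replication bars from 0.04 to -0.24.

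**Figure D5:**
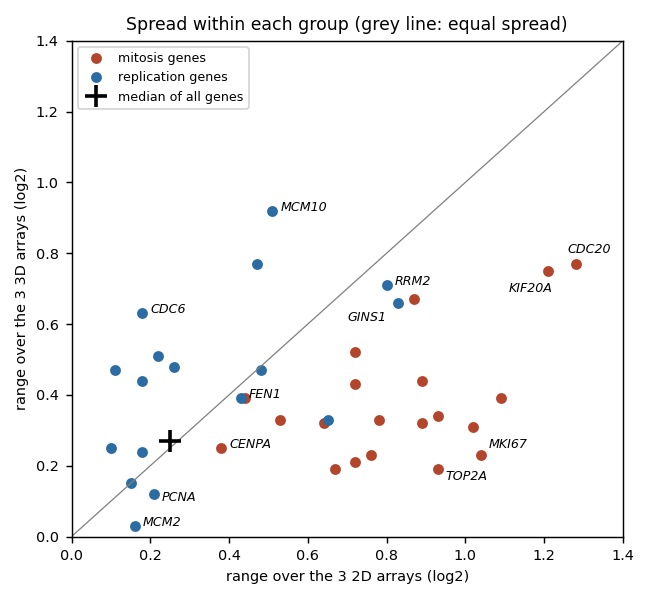
Range of each gene over the 3 2D arrays (horizontal axis, log2) and over the 3 3D arrays (vertical axis, log2), with the median of all genes at 0.25 and 0.27. All mitosis genes lie below the line of equal spread, and most licensing genes, such as CDC6, lie above it.

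The groups also differed in their promoters, a property that did not enter the choice of members. RefSeq windows (GRCh38.p14), which run from 250 bases before a transcript start to 50 after it, were at hand for 17 of the 20 mitosis and 15 of the 17 replication genes. They were searched on both strands for TTTGAA, for the variant TTTAAA and for the variant TTCGAA, which are forms of the cell cycle homology region (CHR) read by MuvB complexes. The NF-Y box CCAAT was searched on both strands as well. Sites of the E2F type were taken as the form TTCGCGC, the form TTGGCGC, the form TTCCCGC or the form TTGCCGC. A gene counted where any of its windows held a match. CHR-type letters were found for 15 of 17 mitosis genes (88.2%) and 4 of 15 replication genes (26.7%), with 2422 of 9707 analysed protein-coding genes and 25.1% of all 35116 windows. E2F-type letters were found for 4 of 17 mitosis genes (23.5%) and 12 of 15 replication genes (80.0%), with 21.6% of protein-coding genes and 4553 of all windows. CCAAT was common to both, in 15 of 17 (88.2%) and 11 of 15 (73.3%), with 42.2% and 34.6% in the backgrounds. All 6 licensing genes with a window held E2F-type letters, and 1 of them, MCM6, CHR-type letters. Of the 4 helicase activation genes only 2 held E2F-type letters, and 1 held CHR-type letters. These matches describe the letters in a window and are not shown to be bound sites.

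The stretches printed here are examples of that contrast, picked from the genes described above after their values were seen. Other members depart from it, as given below the stretches. Shown are the 125 bases before the start site, 5′ to 3′ on the gene's strand. Every match that lies wholly inside the stretch is in capitals. In the mitosis genes the capitals are CHR-type letters (TTTGAA or TTTAAA) and CCAAT or its complement ATTGG, and in MKI67 a TTTGAA and an ATTGG overlap.
CCNB1 (chr5:69167025-69167149, plus strand): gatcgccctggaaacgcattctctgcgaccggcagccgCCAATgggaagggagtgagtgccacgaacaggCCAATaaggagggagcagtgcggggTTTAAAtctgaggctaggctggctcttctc
CDC20 (chr1:43358856-43358980, plus strand): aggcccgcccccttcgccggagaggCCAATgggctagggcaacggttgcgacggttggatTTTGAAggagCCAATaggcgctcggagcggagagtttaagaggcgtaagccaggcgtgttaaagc
KIF20A (chr5:138178987-138179111, plus strand): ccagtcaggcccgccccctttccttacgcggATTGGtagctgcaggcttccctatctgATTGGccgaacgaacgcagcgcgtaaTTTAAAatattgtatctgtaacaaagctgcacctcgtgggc
MKI67 (chr10:128126424-128126548, minus strand): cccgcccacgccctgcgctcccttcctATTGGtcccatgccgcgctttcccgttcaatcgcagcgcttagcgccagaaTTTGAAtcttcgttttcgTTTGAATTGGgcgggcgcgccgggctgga
PLK1 (chr16:23678764-23678888, plus strand): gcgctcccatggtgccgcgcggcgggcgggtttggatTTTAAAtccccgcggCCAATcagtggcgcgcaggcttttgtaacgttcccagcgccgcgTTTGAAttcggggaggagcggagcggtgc
In the replication genes that follow, the capitals are the E2F-type letters GCGGGAA (the complement of TTCCCGC) and CCAAT or ATTGG.
CDT1 (chr16:88803664-88803788, plus strand): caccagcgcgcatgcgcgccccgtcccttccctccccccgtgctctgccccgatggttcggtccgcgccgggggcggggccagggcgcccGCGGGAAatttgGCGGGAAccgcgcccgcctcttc
MCM3 (chr6:52284743-52284867, minus strand): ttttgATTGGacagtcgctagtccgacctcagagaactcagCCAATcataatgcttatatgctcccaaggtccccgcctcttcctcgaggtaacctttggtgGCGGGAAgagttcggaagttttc
PCNA (chr20:5126623-5126747, minus strand): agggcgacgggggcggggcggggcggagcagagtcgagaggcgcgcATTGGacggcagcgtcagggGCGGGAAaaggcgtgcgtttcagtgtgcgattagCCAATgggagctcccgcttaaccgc
GINS2 (chr16:85688955-85689079, minus strand): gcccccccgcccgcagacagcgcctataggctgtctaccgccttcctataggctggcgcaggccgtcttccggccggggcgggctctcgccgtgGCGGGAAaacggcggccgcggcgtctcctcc
FEN1, the member called higher in 3D, held none of the searched letters in its window.
FEN1 (chr11:61792786-61792910, plus strand): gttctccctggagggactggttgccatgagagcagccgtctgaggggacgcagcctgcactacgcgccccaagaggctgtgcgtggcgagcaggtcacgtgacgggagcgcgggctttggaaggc

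In these stretches each mitosis gene carries a CHR-type match downstream of a CCAAT box, and no E2F-type match, although CCNB1 has TTCGCGC at -132, just beyond the part shown. RRM2 stood with the mitosis genes in this respect. The window at its downstream start site held TTTAAA at -30 and CCAAT at -123, -93 and -66, and E2F-type letters (GCGCCAA, at -192) were in the window of its upstream start site. RRM2 also shared the 2D order of the mitosis genes, with values of 8.13, 7.75 and 7.33. That order was found in 8 of 17 replication genes (47.1%). RRM2, RRM1, CDC45 and MCM6, all 4 replication genes with CHR-type letters, had this order. GINS1, TYMS and PCNA had it with E2F-type but no CHR-type letters, and FEN1 with none of the searched letters. CCNA2 and AURKB, which shared the order with all other mitosis genes, also held none of the CHR-type forms searched. Other forms of the CHR were not searched. Every measured member found with CHR-type letters thus had the order, as had some without them. All 20 mitosis genes had it with or without these letters, so the statement adds only the 4 replication genes. For MCM6 the order hung on 8.17 against 8.16 in 2D replicates 2 and 3, and its CHR-type match, TTCGAA, lay at -246. The CHR-type matches of CDC45 lay in the window of only 1 of its start sites. The relation of the letters to the order was not tested.

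Other cell cycle genes were taken from lists. Of 51 measured genes of kinetochore, spindle and cytokinesis 0 passed (limma), with a median of 0.22. At an unadjusted p under 0.05, 3 were higher (5.88%) and 0 lower, where 11.5% of all genes were higher and 11.9% lower. 2D replicate 1 was the highest 2D array for 51 of them, against 34.2% of all genes, and 2D replicate 3 the lowest for 49, against 34.4%. CHR-type letters were found for 35 of the 43 with a window (81.4%) and E2F-type letters for 15 (34.9%). Of 25 other genes of the replication machinery 1 rose (4.0%, against 5.23% of all genes). It was GINS3, a further subunit of the GINS complex. GINS3 went from 7.25, 7.56 and 7.32 in 2D to 7.82, 7.84 and 8.02 in 3D (0.51 ± 0.12 SE, limma adjusted p = 0.0338). At an unadjusted p under 0.05, 3 of the 25 were higher and 2 lower (limma), the latter being UHRF1 (-0.48, adjusted p = 0.0505) and MCMBP (-0.27). The list's median was 0.14, and E2F-type letters were found for 14 of 22 genes (63.6%). When single arrays were left out, the GINS3 call held if 2D replicate 2 (0.036) or 3D replicate 1 (0.0391) was dropped and was otherwise lost (adjusted p up to 0.127). Of 13 genes of DNA damage and recombination 0 passed (limma, median 0.08), and 7 of 13 differences were positive. At an unadjusted p under 0.05, 1 was higher (7.69%, against 11.5% of all genes) and 1 lower, against 11.9%.

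Of 12 G1 and S cyclins, kinases and phosphatases 1 rose (8.33%) and 1 fell (median 0.12), and of all genes 5.23% rose and 4.77% fell. The shares lie near each other. CCND1, the cyclin D1 gene that links growth signals to the cycle, rose from 9.09, 9.02 and 9.20 in 2D to 9.60, 9.74 and 9.76 in 3D, 1.51-fold (0.59 ± 0.098 SE, limma adjusted p = 0.00903). The groups were well apart, and the call was kept when each array was left out in turn (adjusted p up to 0.0465). CDK6, a kinase partner of D cyclins, went the other way, from 8.18, 8.11 and 7.71 to 7.13, 7.35 and 7.47 (-0.68 ± 0.15 SE, adjusted p = 0.0314). Its groups did not overlap, and its call was kept without 2D replicate 3 (0.0188) but lost without any other array (up to 0.109). Among 16 E2F, pocket protein, MuvB and related factor genes 1 rose (6.25%, near the share of all genes) and 0 fell (median 0.06). E2F1, an activator of replication genes, read 7.36, 7.38 and 7.29 in 2D and 7.64, 7.79 and 7.96 in 3D (0.45 ± 0.11 SE, adjusted p = 0.04), which held without 3D replicate 1 (0.0188). It was lost without each of the others (up to 0.139) and after median centring (0.0551). Of 11 cohesin and condensin genes 1 fell, where 4.77% of all genes fell. It was SMC3, a core subunit of the cohesin ring. SMC3 went from 10.39, 10.26 and 10.21 to 9.95, 9.91 and 9.87 (-0.37 ± 0.093 SE, limma adjusted p = 0.044). That call held without 3D replicate 1 (0.0475), and was lost without each of the others (up to 0.154) and after median centring (0.0569), and the list's median was -0.04. At an unadjusted p under 0.05, 5 of the 11 were lower and 2 higher (limma), and 4 lay wholly below in 3D, where 11.9% of all genes were lower and 15.3% lay wholly below. The others lower at that level were STAG1, WAPL, NIPBL and ESCO1 (-0.30 to -0.22). Of 7 measured cell cycle inhibitors, p53 targets and quiescence-linked genes 0 passed (limma). At an unadjusted p under 0.05, 2 were higher (28.6%, against 11.5% of all genes) and 1 lower. No replication-dependent histone gene was analysed here.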

How the data were processed

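Total RNA was hybridised to 1 array per sample. Per the submitters' processing notes the deposited table was made with RMA, so its log2 values are background-corrected, equalised between arrays and summarised per probe set. A log2 scale fits the observed values (0.30 to 13.87). No version, filter or genome build was given in the sources used. RMA compresses differences of dim probe sets. The labels' protocol names a 3′ IVT kit while the annotation is of a whole-transcript array, and this was left unresolved. Of 53617 probe sets 16098 carried 1 symbol, 0 several and the rest none, and symbols were updated through RefSeq gene identifiers for all 14884 genes.

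Groups were compared with limma 3.58.1 in R 4.3.3 over all genes, two-sided, with Benjamini-Hochberg adjustment and a threshold of 0.05. Tested on simulated data, with 14884 genes, the fit recovered 40.3% of 1.5-fold and 95.5% of 2-fold changes. The changed genes were drawn at random, and the rates for the members alone were not estimated. The mitosis genes spread more, with a median SD over the 2D arrays of 0.41, against 0.13 over all genes. Precision is limited by having 3 arrays per group. The members and lists were chosen with earlier results of these data known, so no list was tested. Array values in full were set by rule: MKI67, TOP2A, CDK1, CCNB1, members that passed, and in each set the 3 members with the largest difference and the 3 with the largest 2D range. Further array values (AURKA, AURKB, MCM2, CDC6, MCM10, CDC45, PCNA) and the printed promoters were added after their values were seen. From other lists up to 4 passing genes were named. Alternatives covered normalization (quantile again, or median centring), genes (dim probe sets removed; other ways to choose or average probe sets), the model (trended robust variance, array weights, replicate number as a block) and each array left out.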

Additional observations from a re-analysis of the deposited data

How the results depend on the processing

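The 1488 genes called became 760 with the replicate number as a block and 2538 with array weights, and 775 to 1899 when single arrays were left out. The members called higher numbered 2 after a repeated quantile normalization, with the filter on dim probe sets and with the trended robust variance (FEN1 and RRM2), 4 with array weights (RRM1, FEN1, RRM2 and CDC45), and 0 after median centring and with the replicate block, where FEN1 had an adjusted p of 0.145. They numbered 0 to 3 when single arrays were left out, with 2 without 2D replicate 1 and 3 without 3D replicate 1. No member was called lower in any of these fits. The arrays that share a number did not deviate together (correlations of -0.279, -0.0568 and -0.183 over all genes), and 2D replicate 1 correlated best with 3D replicate 3 (0.205), so the numbers were not taken as pairs. The block also ended the calls of CDK6, E2F1, SMC3 and GINS3 (adjusted p of 0.101 to 0.128). The medians were 0.05 to 0.48 (mitosis) and 0.15 to 0.37 (replication) when single arrays were left out. Array weights, which gave 3D replicate 1 the lowest weight (0.35), turned the sign of AURKB (0.04), MCM6 (0.05) and MCM7 (0.04). Leaving out single arrays turned it for CCNB2 (-0.12 to 0.27), AURKB (-0.21 to 0.15), KIF2C (-0.11 to 0.26), CENPA (-0.15 to 0.04), BIRC5 (-0.01 to 0.43), MKI67 (-0.14 to 0.38), MCM6 (-0.17 to 0.06) and MCM7 (-0.09 to 0.04). The cause of these shifts was not tested. The array levels moved by less than the replicate spread after a repeated quantile normalization and after median centring. The deposited values were already equalised between arrays, so these alternatives could move the levels only little. Averaging the probe sets of a gene could not move them, since each member had a single probe set. With 3 arrays a group, 40.3% of simulated 1.5-fold changes were recovered, in genes drawn at random from all 14884. The rate for the members alone was not estimated.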
